A study of Mus musculus with 8 samples.

Results

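Genes whose bodies were largely covered by acetylation of lysine 56 of histone H3 (H3K56ac) were examined in MuSCs, the stem cells that reside beneath the basal lamina of skeletal muscle fibres. A gene was selected when it was autosomal and protein-coding in GENCODE vM21, was at least 10 kb long and had 50% or more of its length inside H3K56ac peaks. This rule selected 710 of 13520 such genes, which is 5.25% of them. The covered share itself chose these genes, so their coverage is given as a description with no test. No filter on low values was applied. All 13520 genes entered the comparisons, except those of exon number (13446 genes) and first intron length (13411 genes).

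ChIP-seq for H3K56ac, in which immunoprecipitated chromatin is sequenced, was carried out on MuSCs taken freshly from limb and trunk muscle of C57BL/6 mice. The sample labels give no genotype for the Control animals. The paper calls such MuSCs wild type or control, and in a supplementary figure its controls for Sirt6mKO are Sirt6 fl/fl mice without Cre. The Sirt6mKO animals carried Pax7-ICNCre together with Sirt6 fl/fl, so that the deacetylase SIRT6 was removed in cells of the Pax7 lineage. Cells were depleted of Sca1, CD45 and CD31 positive cells and sorted by Integrin-a7 and CD34 or by a fluorescent reporter. Each genotype had 2 H3K56ac libraries and 2 input libraries, input being chromatin without immunoprecipitation. The material analysed here was a single list of 105600 merged peaks on mm10, with a start and an end for each peak and no value per sample. The list does not separate the genotypes, so the comparison of Sirt6mKO with Control MuSCs was not analysed here. Covered shares may hold peaks of either genotype. Replicate spread could not be given, and library depth is unknown from the list.

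Lysine 56 lies in the core of histone H3, near the site where DNA enters and leaves the nucleosome, and its acetylation is removed by sirtuins such as SIRT6. Acetylated histones are usually concentrated at promoters and enhancers as narrow peaks. Long acetylated stretches that spread into the gene body are known from genes of cell identity. Resting MuSCs depend on the transcription factor PAX7 and on Notch signaling to stay quiescent.

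The sequence just before the gene start is shown for 5 of the genes with the highest covered share, because these starts differed widely in CpG content although their gene bodies were all covered to more than 95%. Each line holds the 250 bases upstream of the GENCODE gene start, read 5′ to 3′ on the gene's own strand from GRCm38, which is the same build as mm10. CpG dinucleotides are in capitals, and no annotated exon overlaps these windows.
Edn3, chr2:174760369-174760618, plus strand: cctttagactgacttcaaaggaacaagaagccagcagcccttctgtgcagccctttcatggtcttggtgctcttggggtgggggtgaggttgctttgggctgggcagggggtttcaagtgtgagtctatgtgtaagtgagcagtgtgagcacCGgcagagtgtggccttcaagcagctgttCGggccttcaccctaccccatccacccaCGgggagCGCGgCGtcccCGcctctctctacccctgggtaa
Lax1, chr1:133690109-133690358, minus strand: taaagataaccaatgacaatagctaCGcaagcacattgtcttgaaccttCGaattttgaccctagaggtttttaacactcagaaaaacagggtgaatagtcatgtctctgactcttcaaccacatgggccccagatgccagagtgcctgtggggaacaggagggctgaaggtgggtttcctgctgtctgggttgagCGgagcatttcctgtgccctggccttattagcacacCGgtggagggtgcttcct
Heyl, chr4:123233306-123233555, plus strand: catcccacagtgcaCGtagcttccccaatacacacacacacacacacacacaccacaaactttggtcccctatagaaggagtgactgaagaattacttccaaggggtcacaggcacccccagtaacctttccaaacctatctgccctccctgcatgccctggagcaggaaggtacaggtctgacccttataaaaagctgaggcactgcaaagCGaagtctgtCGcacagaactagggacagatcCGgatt
Dtx4, chr19:12501455-12501704, minus strand: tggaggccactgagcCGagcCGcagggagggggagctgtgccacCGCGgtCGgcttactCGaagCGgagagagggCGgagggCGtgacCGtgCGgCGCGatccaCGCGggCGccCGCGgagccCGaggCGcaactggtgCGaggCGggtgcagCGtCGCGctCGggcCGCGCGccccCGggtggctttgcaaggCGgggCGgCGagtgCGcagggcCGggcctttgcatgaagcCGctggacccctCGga
Plekhf1, chr7:38228017-38228266, minus strand: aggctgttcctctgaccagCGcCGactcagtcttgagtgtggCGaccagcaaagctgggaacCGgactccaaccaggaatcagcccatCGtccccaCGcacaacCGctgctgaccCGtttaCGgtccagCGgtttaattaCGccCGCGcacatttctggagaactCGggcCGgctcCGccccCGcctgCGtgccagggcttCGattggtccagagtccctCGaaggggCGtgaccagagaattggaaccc
The window of Dtx4 held 37 CpG dinucleotides and that of Plekhf1 21. The windows of Edn3, Lax1 and Heyl held 7, 4 and 4. In this short window, a start rich in CpG was therefore not shared by all 5 genes. The ratio of observed to expected CpG was also taken over 500 bp on either side of the start. It was 0.90 in Dtx4, 0.68 in Plekhf1, 0.56 in Edn3, 0.54 in Heyl and 0.22 in Lax1, so only Lax1 stayed clearly low.

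Coverage of the 710 genes had a median of 63.2% and quartiles of 55.5% and 74.0%. Over all 13520 genes the median was 8.89%, and 17.7% of them had no covered base. Coverage became rarer in steps: 293 genes lay between 50% and 60%, 185 between 60% and 70%, 121 between 70% and 80%, 66 between 80% and 90%, and 45 at 90% or more. The threshold did not mark a gap in this distribution. Just inside it were Nfe2 (50.2%), Map2k1 (50.2%), Leprotl1 (50.1%), Tcirg1 (50.1%) and Cpeb4 (50.0%). Just outside it were Sash1 (50.0%), Pkig (50.0%), Fem1c (49.9%), Pitpnm2 (49.9%) and Matn2 (49.8%).

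The most completely covered genes included a signaling peptide, an adaptor and Notch pathway genes. Edn3, the gene of the peptide endothelin 3, was covered to 99.9% of its 23.4 kb. Lax1, an adaptor known from lymphocyte signaling, was covered to 99.8% by 1 peak over 11.018 kb. Heyl, a transcriptional repressor induced by Notch, was covered to 99.2% (chr4:123233556-123249875). Dtx4, a Deltex family ubiquitin ligase of the Notch pathway, was covered to 98.3% over 35.1 kb. Close to them were Plekhf1, a phosphoinositide-binding protein gene (98.0%), Ackr3, a scavenging receptor for the chemokine CXCL12 (97.9%), and Mknk2, a kinase of the translation factor eIF4E (97.9%). Gm11084 (97.7%) and 4930447A16Rik (97.5%), both predicted genes, overlap the coding genes Sp3 and Ncald, so their coverage cannot be told apart from that of these partners. Of the 710 genes, 173 overlapped another protein-coding gene.

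Most largely covered genes were built from several peaks. The median was 7 peaks per gene, with quartiles of 4 and 14, and 13 genes had 1 peak. In 86 genes, or 12.1% (Wilson 95% interval 9.91 to 14.7), a single peak covered 50% or more of the gene. The widest peak over a gene had a median width of 8.77 kb. The widest of all, 55.966 kb, lay in Egfr, the receptor of epidermal growth factor, which was covered to 69.2% by 21 peaks over 166 kb. Gaps between the peaks of a gene were mostly short, with a median of 326 bp over 8118 gaps.

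The length of these genes ranged from 10.004 to 766.722 kb with a median of 27.9 kb, compared with 33.5 kb over all genes. The covered share has gene length as its denominator. Of the genes from 10 to 15 kb 7.39% were largely covered, of those from 15 to 20 kb 6.35%, from 20 to 30 kb 5.00% and from 30 to 50 kb 4.04%. The share did not fall further up to 200 kb, with 5.30% from 50 to 100 kb and 4.93% from 100 to 200 kb. The share was 2.99% from 200 to 500 kb and 1.38% above 500 kb, where 3 of 218 genes passed. Long genes were therefore rarer but not absent, as the plot of covered share against length shows.

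**Figure D1:**
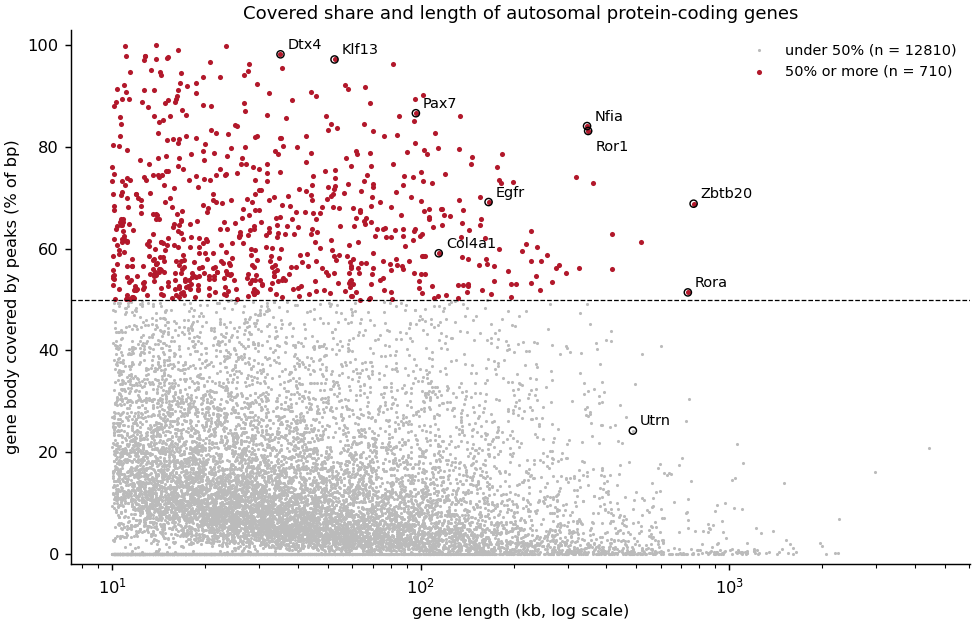
Covered share of the gene body (% of bp) against gene length (kb, log scale); each point is 1 of 13520 autosomal protein-coding genes, red points are the 710 genes at 50% or more and the dashed line marks 50%. Zbtb20, at 766.722 kb and 68.9%, lies far to the right of most red points, and Utrn is shown at 24.2%.

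The longest of them was Zbtb20, a zinc finger repressor (chr16:42875881-43642602). It was covered to 68.9% by 148 peaks, the widest of 52.5 kb. Rora, a nuclear receptor, had 219 peaks over 734 kb and a covered share of 51.4%, which became 49.5% with peaks of at least 500 bp only. Rad51b, a homologous recombination gene, was covered to 61.4% over 517 kb. Arhgap24, a GTPase regulator, was covered to 56.1% over 417 kb, and Nfib to 62.9% over 416 kb. Nfia (chr4:97772734-98118874) and Ror1 (chr4:100095791-100444765) combined great length with dense coverage, at 84.1% of 346 kb and 83.2% of 349 kb. For comparison, Utrn, the utrophin gene on which the study centers, was covered to 24.2% of its 487 kb by 56 peaks and was not among the selected genes.

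**Figure D2:**
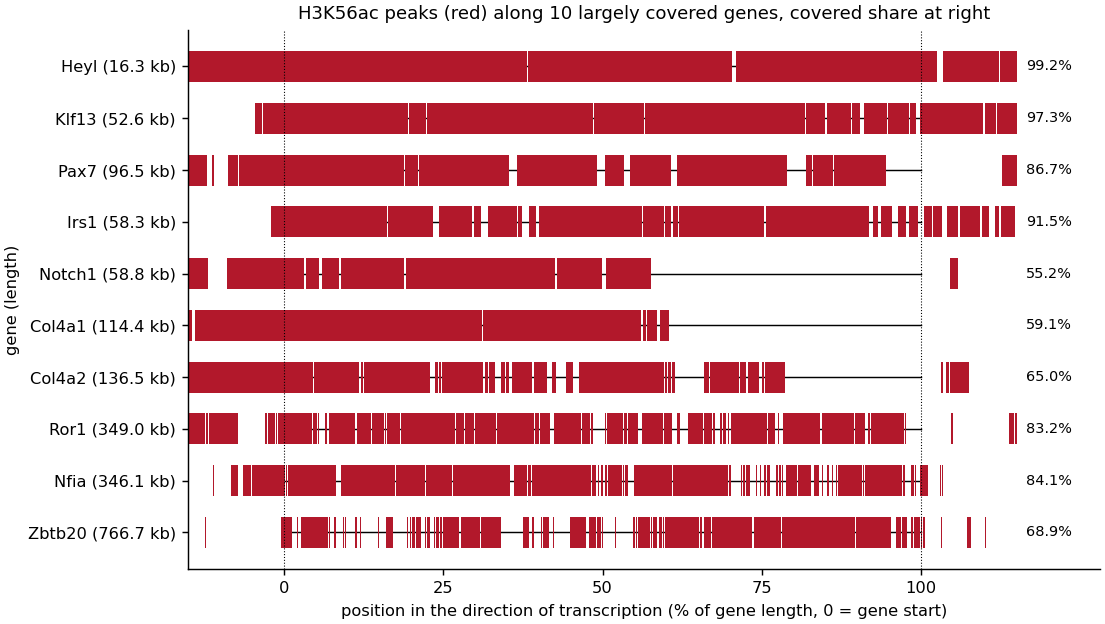
H3K56ac peaks (red) along 10 largely covered genes, drawn from 15% of gene length before the start to 15% past the end, with position as % of gene length in the direction of transcription and the covered share at the right. Peaks run through Heyl and Klf13 from start to end with short gaps, whereas those of Notch1 and Col4a1 stop at 57.6% and 60.4% of the gene.

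Within the gene body, coverage was highest in the first part and thinned toward the gene end. The start base lay in a peak in 645 of the 710 genes, or 90.8%, compared with 67.4% of all genes. Divided into 10 equal parts, the gene bodies had a mean covered share of 87.9% in the first part, 76.2% in the fifth, 60.7% in the seventh and 33.98% in the last. In genes covered from 20% to under 50%, of which there were 2634, the means were 75.8% in the first part, 23.7% in the fifth and 15.8% in the last. Thus the selected genes differed from the next class less at the start than in the middle of the gene. The rule fixes the sum over the parts, so this difference is descriptive. In 143 genes (20.1%) the parts 6 to 10 were covered more than the parts 1 to 5, compared with 19.7% of the genes covered from 20% to under 50% and 15.2% of all genes.

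**Figure D3:**
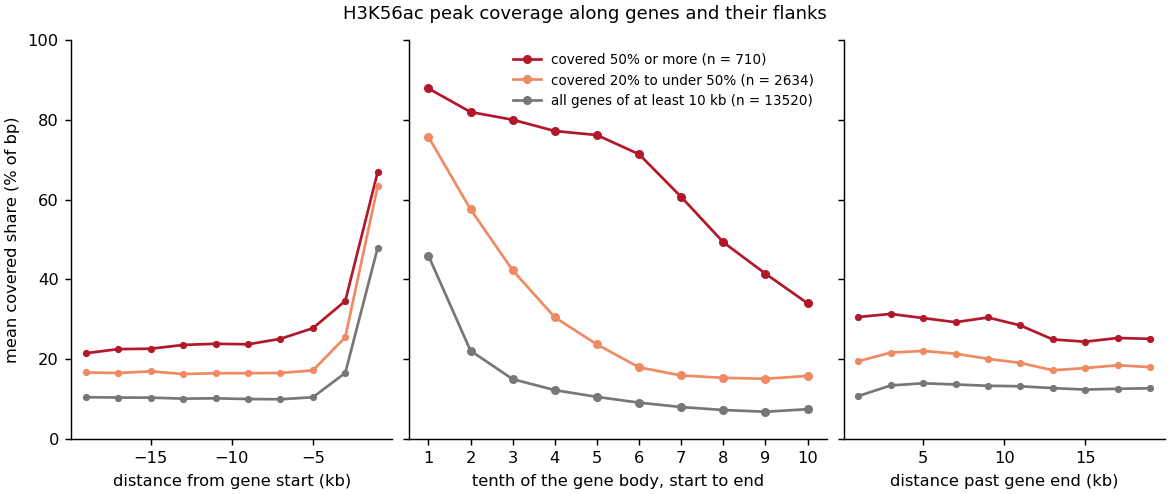
Mean covered share (% of bp) in 2 kb bins to 20 kb before the gene start, in 10 equal parts of the gene body and in 2 kb bins to 20 kb past the gene end, for the 710 largely covered genes (red), 2634 genes covered from 20% to under 50% (orange) and all 13520 genes (grey). The red line stays above 70% to the sixth part of the gene body and falls to 33.98% in the last.

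The flanks, which the rule did not use directly, were also covered above the level of all genes. They are not independent of the rule, because the same peaks can cross the gene borders. The start base lay in a peak in 645 of the 710 genes and the last peak ran past the end in 218. A largely covered gene was next neighbour to 167 of them. The 2 kb before the start had a mean covered share of 66.9%, compared with 47.9% over all genes. From 18 to 20 kb before the start the share was 21.5%, compared with 10.4%. Past the gene end it was 30.5% in the first 2 kb and 25.1% from 18 to 20 kb, compared with 10.7% and 12.7% over all genes. The median past the end was 0% from 2 kb on, so the means came from a minority of genes. There was no step at the gene end itself, since the last part of the gene body and the first 2 kb beyond it were at 33.98% and 30.5%.

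To describe where coverage ended in each gene, the peak end was found that best divided the gene into a covered part before it and an uncovered part after it. This point lay at a median of 73.4% of gene length, with quartiles of 59.1% and 90.1%, and left a median of 6.99 kb uncovered. It lay at 90% of the gene or later in 180 genes, from 75% to under 90% in 156, from 50% to under 75% in 291 and before 50% in 83. In the 530 genes where it lay before 90%, a median of 91.7% was covered before it and 9.43% after it, values that the choice of the point itself favors. On the transcript with the longest coding sequence the point fell in an intron other than the first or last in 312 genes (43.9%), in the first intron in 126 (17.7%), in the last exon in 124 (17.5%) and in the last intron in 59 (8.31%). The first intron was covered to a median of 93.8%, the other introns to 53.3%, the coding exons to 44.0% and the 3′ UTR to 0%. The last of the 10 equal parts of the gene held no covered base in 284 genes (40%).

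**Figure D4:**
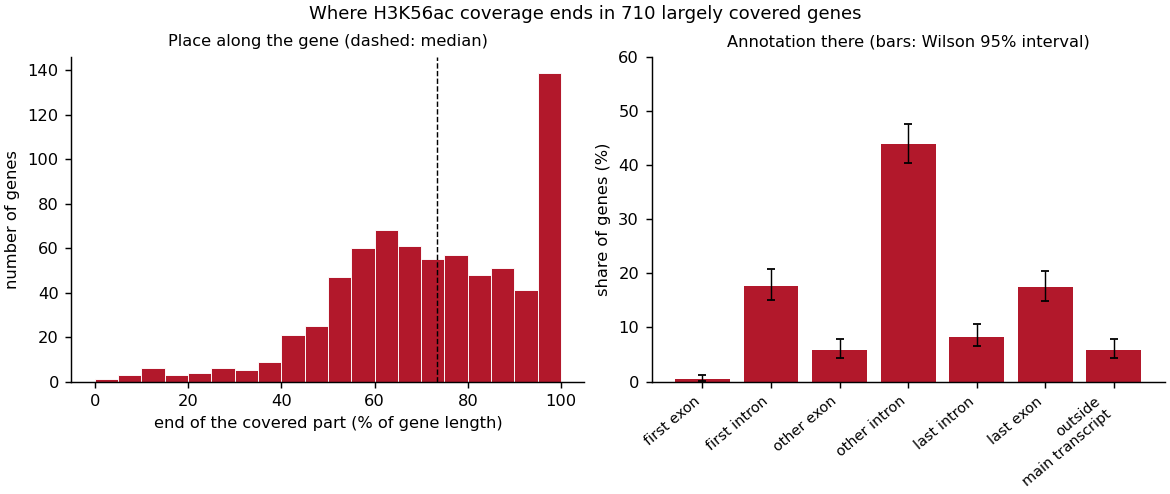
Left, number of the 710 genes by the place where coverage ended (% of gene length, bins of 5%, dashed line at the median of 73.4%); right, share of these genes (%) by the annotated feature at that place, with Wilson 95% intervals. The ends are spread along the gene, 83 of them before 50%, with a pile at the gene end, and introns other than the first or last hold the largest share, 43.9%.

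Only a minority of the genes were covered through to the end. In 218 of the 710, or 30.7% (Wilson 95% interval 27.4 to 34.2), the last peak ran past the gene end, compared with 8.32% of all genes. When peaks less than 1 kb apart were joined into runs, the run at the gene start reached the gene end in 39 genes, or 5.49% (interval 4.04 to 7.42), compared with 0.858% of all genes. The run went farthest past the end in 4930447A16Rik (22.3 kb), Ccdc134 (22.3 kb), Gm20721 (20.9 kb), Edn3 (17.2 kb) and Irs1 (14.0 kb). Irs1, an adaptor of the insulin receptor, was covered to 91.5% of its 58.3 kb by 19 peaks. Gm20721 overlaps Gnas, so its coverage cannot be told apart from that of Gnas.

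At the other extreme, the last peak of Arhgap42, a gene of a GTPase-activating protein, ended 55.2 kb before the gene end. Col4a1, which encodes a basement membrane collagen chain (chr8:11198423-11312826), had 97.9% of its length covered as far as intron 10 and no covered base in the remaining 45.3 kb. Ppfibp1, Tnpo1 and Mtss1 followed, with last peaks 38.7, 35.6 and 34.1 kb before the end. Notch1, the receptor (chr2:26457903-26516663), showed the same form: 95.8% was covered as far as intron 4 and nothing in the last 24.9 kb. On the extent of its longest protein-coding transcript alone, the covered share of Notch1 was 44.6% and under the threshold.

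Cell type markers were used to check the label of the sample. All 20 MuSC marker genes, of any length, had their start in a peak, compared with 67.4% of all genes of at least 10 kb. Their median covered share was 70.0% (range 20.2% to 100%). Several of them are shorter than 10 kb, such as Myf5 and Cxcr4 at 100%, which raises this median. The 13 that were autosomal and at least 10 kb long had a median of 50.3%, and 7 of them were largely covered. These were Heyl, Vcam1, an adhesion molecule (88.3%), Pax7, the factor that maintains MuSCs (86.7%), Sdc4, a heparan sulfate proteoglycan (79.3%), Cd34 (60.7%), Megf10 (57.0%) and Met, the receptor of hepatocyte growth factor (50.3%). The others were Chrdl2 (49.5%), Calcr (43.8%), Cdh15 (41.4%), Itgb1 (33.6%), Itga7 (30.2%) and Notch3 (20.2%). The proteins used for the sort were CD34 and Integrin-a7, the product of Itga7. None of the 6 endothelial, 6 blood, 6 fibro-adipogenic, 6 mural or 6 myofibre marker genes was covered to 50%. Among all genes of at least 10 kb this share was 5.25%, so 6 genes are too few to set a count of 0 against it. Of the 6 blood marker genes, 5 had no covered base, compared with 17.7% of all genes of at least 10 kb. Covered shares ranged from 0% to 27.5% for the endothelial genes, from 0% to 31.9% for the blood genes, from 0% to 43.2% for the fibro-adipogenic genes, from 1.75% to 40.4% for the mural genes and from 0.446% to 21.5% for the myofibre genes. Their starts lay in a peak in 2, 0, 4, 5 and 3 of the 6 genes, beside the 67.4% of all genes, so peaks were not absent from genes of the other cell types. Among glial marker genes, Ngfr, the low-affinity neurotrophin receptor, was covered to 51.8%, while Sox10 was at 11.7%. In a bulk sample, a peak present in few cells and a weak peak present in all cells cannot be told apart, and the part of other cell types in these values was not tested.

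Pax7 (chr4:139737062-139833528) was covered to 94.9% in parts 1 to 5 of its 10 equal parts and to 78.4% in parts 6 to 10. Its 96.5 kb carried 15 peaks, the widest of 21.3 kb over the gene start. Coverage ended in the last intron, at 94.4% of the gene, and the remaining 5.35 kb held no covered base. The run at its start began 8.51 kb upstream.

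Gene lists were then set beside the background of 5.25%. They held 2210 genes in all, of which 148 (6.70%) were largely covered, so 562 of the 710 selected genes belonged to no list. Because these lists were chosen with earlier results known, their counts are descriptive.

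**Figure D5:**
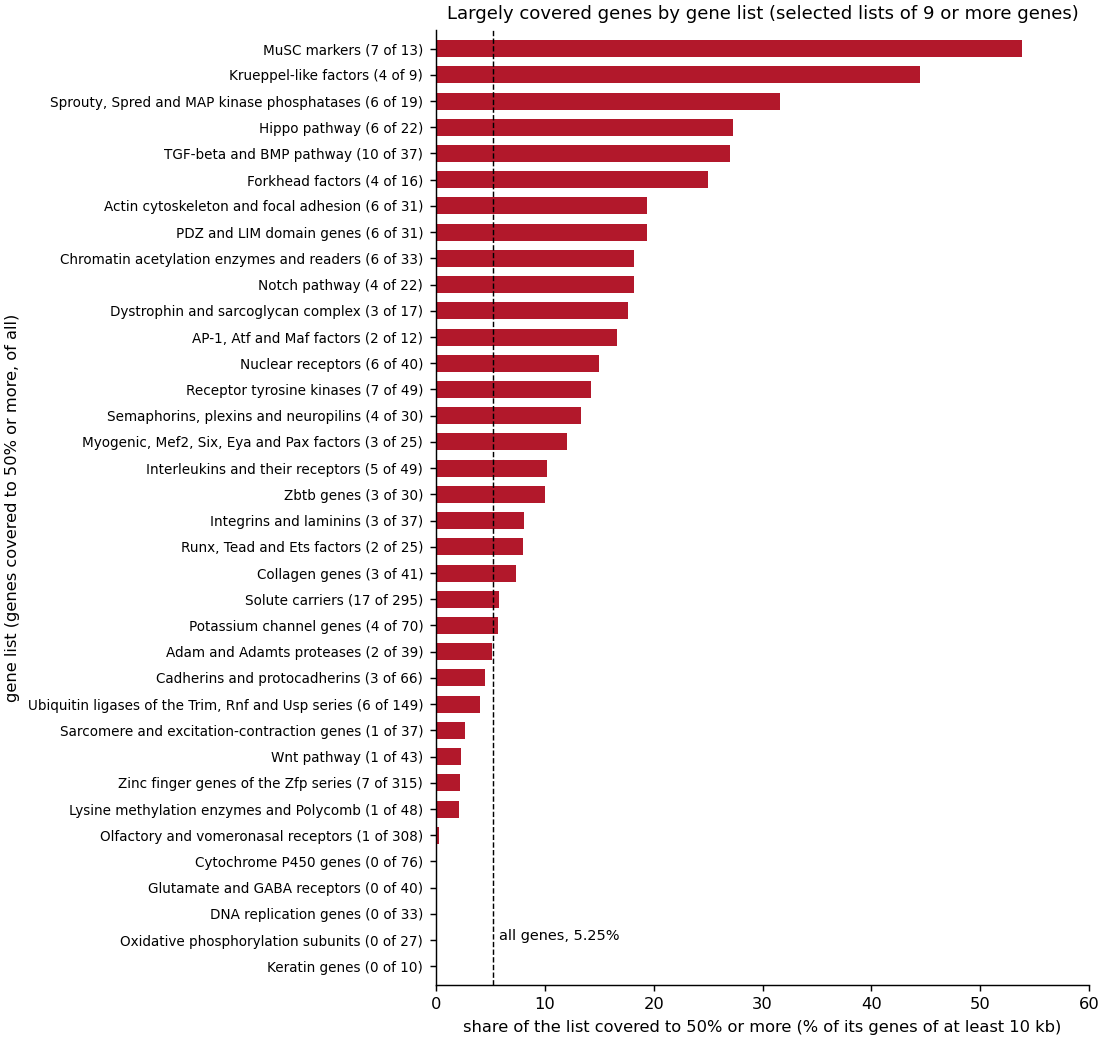
Share of each gene list covered to 50% or more (% of its autosomal genes of at least 10 kb), for selected lists of 9 or more genes, with counts beside each name and a dashed line at 5.25% for all genes. MuSC markers stand at the top with 7 of 13, and 5 lists at the bottom have 0.

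Lists of transcriptional regulators ranged widely in the share that was largely covered. Among Krueppel-like factors, 4 of 9 were largely covered, namely Klf13 (97.3% of 52.6 kb), Klf15 (91.2%), Klf9 (87.0%) and Klf3 (51.5%). Of the 4 nuclear factor I genes, which encode CCAAT-binding factors, Nfia (84.1%), Nfix (75.2%) and Nfib (62.9%) were largely covered. Forkhead factors gave 4 of 16. Foxo1 was covered to 86.2% and Foxo3 to 85.2%, both being targets of AKT in the insulin pathway, and Foxk1 and Foxo6 were at 68.0% and 61.6%. Nuclear receptors gave 6 of 40, with Nr2f2 at 69.3%, Rara at 67.0% and Rxra at 66.6%. Of a list of 25 myogenic and related factors 3 passed, among them Pax7 (86.7%) and Six4 (57.0%), while Myf5 and Myod1 are shorter than 10 kb. Of 315 genes of the Zfp series 7 passed (2.22%), compared with 5.25% of all genes. The Sox list gave 0 of 5, too few genes to set against that share, with Sox13 highest at 12.7%.

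Signaling genes were covered unevenly. In the Notch pathway 4 of 22 genes were largely covered, from the receptor Notch1 (55.2%) and its ligand Jag1 (59.99%) to Dtx4 and Heyl, while the median of the list was 16.04%. TGF-beta and BMP genes gave 10 of 37 and a median of 28.2%. They included the co-repressor Ski (88.7%), the transducer Smad3 (82.8%), the co-receptor Tgfbr3 (78.6%), the ligand Tgfb2 (71.2%) and the inhibitory Smad7 (69.2%) and Smad6 (65.2%). Sprouty, Spred and MAP kinase phosphatase genes, all dampers of growth factor signals, gave 6 of 19, led by Dusp8 (80.9%) and Spry4 (75.3%). Among 49 receptor tyrosine kinases 7 passed, with Fgfr4 (89.4%), Ror1 (83.2%), Fgfr1 (78.7%) and Egfr (69.2%) at the top. Hippo pathway genes gave 6 of 22, led by Amotl2 (94.6%), Vgll3 (84.5%) and Wwtr1, the gene of TAZ (74.7%). Of 43 Wnt pathway genes 1 passed (2.33%, compared with 5.25% of all genes), the co-receptor gene Lrp6 at 51.0%.

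Actin cytoskeleton and focal adhesion genes gave 6 of 31, among them Zyx (82.2%), Myh9 (76.7%) and Actn4 (76.2%). Integrins and laminins gave 3 of 37 (8.11%, compared with 5.25% of all genes), led by the laminin gene Lamc1 (79.8% of 114 kb). Cadherins and protocadherins gave 3 of 66 (4.55%), all of them genes of the protocadherin gamma cluster, whose transcripts share exons. Collagen genes gave 3 of 41 (7.32%), Col4a2 (64.99%), Col4a1 (59.1%) and Col6a1 (52.5%). In the dystrophin and sarcoglycan complex 3 of 17 passed, Sspn, the gene of sarcospan (79.3%), Dag1, the gene of dystroglycan (76.3%), and Sntb2, a syntrophin gene (56.8%). Chromatin acetylation enzymes and readers gave 6 of 33, among them the reader Brd2 (65.3%) and the deacetylases Sirt2 (55.5%), Hdac5 (54.2%) and Hdac4 (53.4%). Lysine methylation and Polycomb genes gave 1 of 48 (2.08%, compared with 5.25% of all genes), Jarid2 at 55.5%.

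Sarcomere and excitation-contraction genes, which act in the mature fibre, gave 1 of 37 (2.70%, compared with 5.25% of all genes), Tnnt1 at 52.7%. None of 27 oxidative phosphorylation genes, 33 DNA replication genes, 76 cytochrome P450 genes or 40 glutamate and GABA receptor genes passed, compared with 5.25% of all genes. The lists of 27, 33 and 40 genes hold too few genes to set a count of 0 against that share. The first 2 of these lists had median covered shares of 15.8% and 7.82%, compared with 8.89% over all genes. Of 308 olfactory and vomeronasal receptor genes 1 passed (0.325%), Olfr455 at 70.8%. In some lists the extent of the gene model matters. Dusp1 spans 56.5 kb in GENCODE and overlaps Ergic1, whereas the transcript with its longest coding sequence spans 2.93 kb. Lims1 was covered to 62.9% over its full extent and to 23.5% on the transcript with its longest coding sequence. The protocadherin genes Pcdhgc3, Pcdhgc4 and Pcdhgc5 overlap each other and share peaks.

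Largely covered genes were spread over all autosomes, from 3.59% of the genes on chromosome 5 to 7.505% on chromosome 15. Along the chromosomes, 167 of the 710 (23.5%) had another largely covered gene as next neighbour among genes of at least 10 kb, compared with 1192 of the 12810 other genes (9.31%). In 23 of the 91 neighbouring pairs the 2 genes shared a peak, and in 21 they overlapped, so neighbours were not independent. The longest series held 5 genes, Oaf, Trim29, Nectin1, Gm49380 and Usp2, on chromosome 9 (chr9:43221235-44113500). Irs2, Col4a1 and Col4a2 formed a series of 3 on chromosome 8, in which the divergent starts of the collagen genes lay in a common covered run.

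The sequence at the gene start was then compared with that of all genes in a window from 250 bases before to 50 bases after the start. The ratio of observed to expected CpG had a median of 0.68 in the largely covered genes, with quartiles of 0.40 and 0.86, and of 0.64 over all genes, with quartiles of 0.31 and 0.85. It did not rise with coverage among them. The median was 0.70 at 50% to 60%, 0.71 at 60% to 75% and 0.56 in the 160 genes at 75% or more, to which Edn3, Lax1 and Heyl with the few CpG dinucleotides shown above belong. Less covered genes had medians of 0.52 at under 10%, 0.74 at 10% to 20%, 0.71 at 20% to 30%, 0.72 at 30% to 40% and 0.69 at 40% to 50%. Motifs were searched by their letters on both strands of the same window. The E-box CANNTG was present in 64.1% of the largely covered genes and 68.1% of all genes, and its form CAGCTG, known as a site of myogenic factors and counted within CANNTG too, in 18.5% and 16.2%. The AP-1 motif TGANTCA was present in 4.65% and 6.09%, and the nuclear factor I half-site TTGGCA in 10.6% and 12.8%.

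Gene bodies of the largely covered genes had a median GC content of 48.5%, compared with 44.5% over all genes. Repeats, taken as the lower-case bases of the reference, made up a median of 19.5% of these gene bodies, compared with 25.3%. Their main transcripts had a median of 7 exons, compared with 10, and a first intron of 8.97 kb, compared with 5.51 kb. These traits were not particular to the selected genes. At 40% to 50% coverage the medians were 48.4% GC, 20.7% repeat, 9 exons and a first intron of 7.66 kb. At 50% to 60% they were 47.8%, 20.9%, 8 exons and 9.22 kb. GC content was close in the whole parts of the gene before and after the place where coverage ended. In the 530 genes whose coverage ended before 90% of the gene, it had a median of 48.5% before that point and 48.6% after it, and was higher before it in 280. Short windows around the point were not examined. The repeat share in these genes had a median of 19.8% before the point and 17.8% after it, and was higher before it in 327. Within the genes, 18.6% of the sequence in peaks was repeat, whereas gaps between peaks of under 100 bp were 48.6% repeat, gaps of 100 to 300 bp 38.4% and gaps of 3000 bp or more at most 27.7%. Only reads with a single alignment had been kept, which lowers read density in repeats, and the part of this filter in the short gaps was not tested.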

How the data were processed

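The authors checked reads with FastQC, trimmed them with Trim Galore, aligned them to mm10 with bowtie, retained uniquely aligned reads, discarded duplicates with Picard, called peaks with MACS2, removed blacklisted regions and merged the peaks into a union set with GenomicRanges. The deposited list gives peak positions in bp and holds 0 columns of values per sample, and which libraries entered the merge is not given in the sources used here. Merging widens peaks, so coverage describes the union. The paper reports more H3K56ac peaks in Sirt6mKO MuSCs, and after loss of Sirt6 peaks broader than those of several other histone marks. The part of the Sirt6mKO libraries in the covered shares was not tested, so these shares cannot be read as those of Control MuSCs.

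Coverage was computed here as covered bp divided by the GENCODE vM21 gene length, with Python 3.11.15, numpy 2.4.6, pandas 2.3.3 and scipy 1.17.1, and functions were tested on simulated data. Transcripts with the longest coding sequence gave exons and introns. Sequence came from the RefSeq GRCm38.p6 assembly. Named genes were the 10 with the highest covered share, the 5 longest, 5 on either side of 50%, the 5 farthest past and before the gene end, up to 6 genes per list, Pax7 and Utrn, and some of these are not reported here. Met, the MuSC markers under 50%, Irs2, Sox10 and genes overlapped by a named gene were chosen after their values were seen. Members and lists were chosen with earlier results of these data known. Wilson 95% intervals cover counting error only. Alternatives were other thresholds, gene lengths, gene extents, peak widths, joined peaks and gene bodies without the start. The genotype comparison had no values to test.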

Additional observations from a re-analysis of the deposited data

How the results depend on the processing

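No paired analysis was possible because the peak list used here gives no value per sample and no result comes from a test. Covered shares describe the union of libraries, and gene extents come from an annotation that includes long alternative transcripts. At a threshold of 40%, 60% or 75% there were 1187, 417 or 160 genes. The last of 10 equal gene parts was covered to a median of 4.01%, 41.9% or 65.9%, and the last peak ran past the gene end in 26.2%, 37.6% or 48.8%. The first run of the gene reached the gene end in 3.54%, 9.11% or 22.5%, and 10.5%, 4.30% or 2.04% of the list genes passed. At 75% the median length was 23710.5 bp and the median CpG ratio 0.56. With genes of at least 5 kb or 20 kb there were 1130 or 443, with median lengths of 14384 and 50038 bp. The last peak ran past the end in 34.9% or 24.4%, and the first run reached the end in 11.8% or 2.03%. With peaks of at least 1000 bp only, 538 genes passed. The last part was covered to a median of 4.41%, the last peak passed the end in 27.0%, the first run reached it in 3.72% and 5.07% of the list genes passed. Without the first 3 kb of each gene 586 genes passed, of which 563 were among the 710, with a median length of 31744.5 bp, a last part at 32.1% and 5.61% of the list genes. With runs joined across gaps under 3 kb, the first run reached the gene end in 17.2% of the genes. The other 44 values of these summaries stayed within 1.5 times for counts, or within the 95% interval of the reported value for shares and medians. The gene extent on the transcript with the longest coding sequence, chosen after seeing the data, gave 667 genes, 643 of them among the 710. Of the 167 genes named by rule, 30 moved across 50% with peaks of at least 1000 bp only, 24 without the first 3 kb, 8 with peaks of at least 500 bp only and 6 with peaks joined.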
